A study of Mus musculus with 12 samples.

Results

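Amino acid transporters of mouse satellite cells were followed across 4 stages of life. They were chosen by symbol as the genes of the solute carrier families Slc1, Slc3, Slc6, Slc7, Slc36, Slc38 and Slc43. The array measured 62 such genes among 19938. Satellite cells are the stem cells of skeletal muscle and are marked by the transcription factor Pax7. They had been sorted for green fluorescence from heterozygous mice with ZsGreen at the Pax7 locus, on a C57BL/6 background. All 4 stages carried the reporter allele and none was treated. The 4 groups were fetal (E17.5, fore- and hindlimbs, 4 mice), adolescent (postnatal day 21, hindlimbs, 6 mice), adult (2 to 3 months, hindlimbs, 8 mice) and aged (over 1 year, hindlimbs, 8 mice). Each had 3 arrays. The mice were pooled, and sorting gates were set for each age against wild-type SV129 muscle. The labels do not say that the 3 arrays of a stage came from separate pools, so the p-values reflect no more than the spread among these arrays, part or all of which may be technical.

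Cells take up amino acids through carriers of several designs. Exchangers of the Slc7 family pair a light chain with a heavy chain of the Slc3 family and swap one amino acid for another, while Slc1, Slc6 and Slc38 carriers use the sodium gradient to accumulate their substrates. Carriers on the lysosome, among them Slc38a9 and Slc36a1, also report amino acid supply to the growth kinase mTORC1, whose activity is known to affect how fast a quiescent satellite cell enters the cell cycle. The symbol rule is wider than the name of the group: Slc6a2, Slc6a3 and Slc6a4 carry monoamines, Slc6a8 carries creatine and Slc43a3 carries purine bases.

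The changes with the largest size over the span from fetal to adult were in opposite directions. Slc7a8, the light chain of a neutral amino acid exchanger, was 13.0-fold higher in adult than in fetal cells. Slc38a4, a sodium-coupled neutral amino acid carrier, was 14.7-fold lower. Slc43a2, a facilitative carrier of large neutral amino acids, was 5.04-fold higher. The 250 bases before the start of each gene are shown for these, for Slc7a7, which rose at all 3 steps between stages, and for Slc7a11, whose 120 bases hold a known stress-response motif on both strands although its signal stayed at background. The windows are those of RefSeq on GRCm38.p6, printed 5′ to 3′ on the gene's strand, and lie at chr14:54781887-54782136 (minus), chr15:97055957-97056206 (minus), chr11:75531444-75531693 (plus), chr14:54417945-54418194 (minus) and chr3:50443614-50443733 (minus) in the order printed. Capitals mark matches to TGATGNAA, the core of the amino acid response element bound by ATF4 with C/EBP proteins, or to CAGCTG, an E-box of the myogenic factors, searched on both strands.
Slc7a8: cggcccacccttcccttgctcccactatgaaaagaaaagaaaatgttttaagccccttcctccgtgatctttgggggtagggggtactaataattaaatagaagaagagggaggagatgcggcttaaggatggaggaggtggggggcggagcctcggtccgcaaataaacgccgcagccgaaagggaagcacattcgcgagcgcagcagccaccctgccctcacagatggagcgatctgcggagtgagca
Slc38a4: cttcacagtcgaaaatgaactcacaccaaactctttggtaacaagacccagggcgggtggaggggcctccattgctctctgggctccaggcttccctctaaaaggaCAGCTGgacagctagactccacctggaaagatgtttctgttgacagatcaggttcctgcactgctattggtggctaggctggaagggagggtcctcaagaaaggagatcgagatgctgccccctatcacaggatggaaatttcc
Slc43a2: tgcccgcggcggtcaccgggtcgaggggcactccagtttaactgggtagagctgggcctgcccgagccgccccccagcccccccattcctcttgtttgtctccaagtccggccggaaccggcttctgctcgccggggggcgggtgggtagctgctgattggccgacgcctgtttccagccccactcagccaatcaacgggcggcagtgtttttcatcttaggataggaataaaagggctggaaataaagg
Slc7a7: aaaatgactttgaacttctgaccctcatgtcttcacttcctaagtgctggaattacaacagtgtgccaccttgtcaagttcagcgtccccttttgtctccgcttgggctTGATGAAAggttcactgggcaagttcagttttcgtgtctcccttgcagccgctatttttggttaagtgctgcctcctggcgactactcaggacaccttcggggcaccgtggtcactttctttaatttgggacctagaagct
Slc7a11: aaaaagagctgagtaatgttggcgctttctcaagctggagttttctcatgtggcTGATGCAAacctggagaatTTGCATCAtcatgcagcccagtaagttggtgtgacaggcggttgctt
The Slc7a8 and Slc43a2 windows held neither motif. CAGCTG stood in the Slc38a4 window from base -144 of the start, and TGATGAAA in the Slc7a7 window from base -141. TGATGCAA also began at base -1 of the Slc7a7 start and ran past the printed bases. Slc7a7 had 5 windows, and another of them held CAGCTG from base -99 of its own start. The Slc7a11 window held TGATGCAA from base -66 and its reverse complement TTGCATCA from base -47. Windows were given for 45 of the 62 genes. Among their 66 windows, counted over 250 bases before to 50 after the start, 5 held TGATGNAA and 13 held CAGCTG, against 3.97% and 16.3% of all 32851 windows. A match is a description of these letters only.

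Signal is given throughout on the deposited log2 scale, on which a difference of 1 is 2-fold, and levels of different genes are not compared. Genes of the olfactory and vomeronasal receptors, used in the nose to sense odours and pheromones, gave a measure of background. A transporter was taken to be above background in a stage where its mean passed the 95th percentile of 1210 receptor probe sets, which was 5.43 in fetal, 5.46 in adolescent, 5.90 in adult and 5.51 in aged cells. By that measure 43 of the 62 genes were above background in some stage, 33 in every stage and 19 in none. Adult replicates 2 and 3 and aged replicate 1 stood apart, with a receptor mean of 4.47, 4.50 and 4.31 against 3.79 to 3.91 on the other arrays. Adult replicate 1 was closest to adolescent replicate 2 (r = 0.985 across genes), and its mean over 19 genes of G2 and M phase was 7.36 against 5.81 and 5.80 on the other adult arrays. In every stage replicates 2 and 3 were closest to each other (r = 0.996 to 0.999). Replicate 1 was less close to its nearest array (r = 0.985 to 0.993), so a fit without it keeps the arrays most alike. Array medians lay between 6.13 and 6.29, and precision is limited by having 3 arrays a stage. In such pools, fewer cells of a type and less RNA per cell cannot be told apart.

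The sorted cells carried the satellite cell markers at all stages, and markers of other cells moved with the stages. The mean of 13 satellite cell markers was 9.49 to 9.53 on fetal arrays, 10.52 to 10.62 on adolescent arrays and 10.73 to 10.80 on adult and aged arrays, and 12 of the 13 rose from fetal to adolescent. Pax7 itself lay between 10.36 and 11.71 on the 12 arrays. The mean of 14 endothelial markers was 6.83 to 7.64 in fetal, 8.31 to 8.86 in adolescent, 7.72 to 7.78 in adult and 8.49 to 9.03 in aged cells. From fetal to adolescent 13 of them rose, and from adult to aged 9 of them rose, where 10.1% and 3.28% of all genes did. None of the 14 was at background in any stage. The mean of 10 myofibre markers was 6.74 to 7.59 in fetal and 8.51 to 8.85 in adolescent cells. The mean of 8 mast cell markers was 5.93 to 6.29 in fetal cells and 4.53 to 4.98 later. The part of these cells in any change described here was not tested.

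Across the 4 stages 27 of the 62 transporters (43.5%) differed by limma's F-test at an adjusted p under 0.05, against 41.6% of all genes. Among genes above background in some stage the shares were 24 of 43 transporters (55.8%) and 54.4% of 14269 genes, so the group as a whole varied about as often as the rest of the array. The changes were uneven within it. From fetal to adult, 7 transporters rose and 2 fell by 2-fold or more, where 2067 of all 19938 genes did either. The light chain Slc7a5 and the carriers Slc38a2 and Slc7a2 did not pass.

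**Figure D1:**
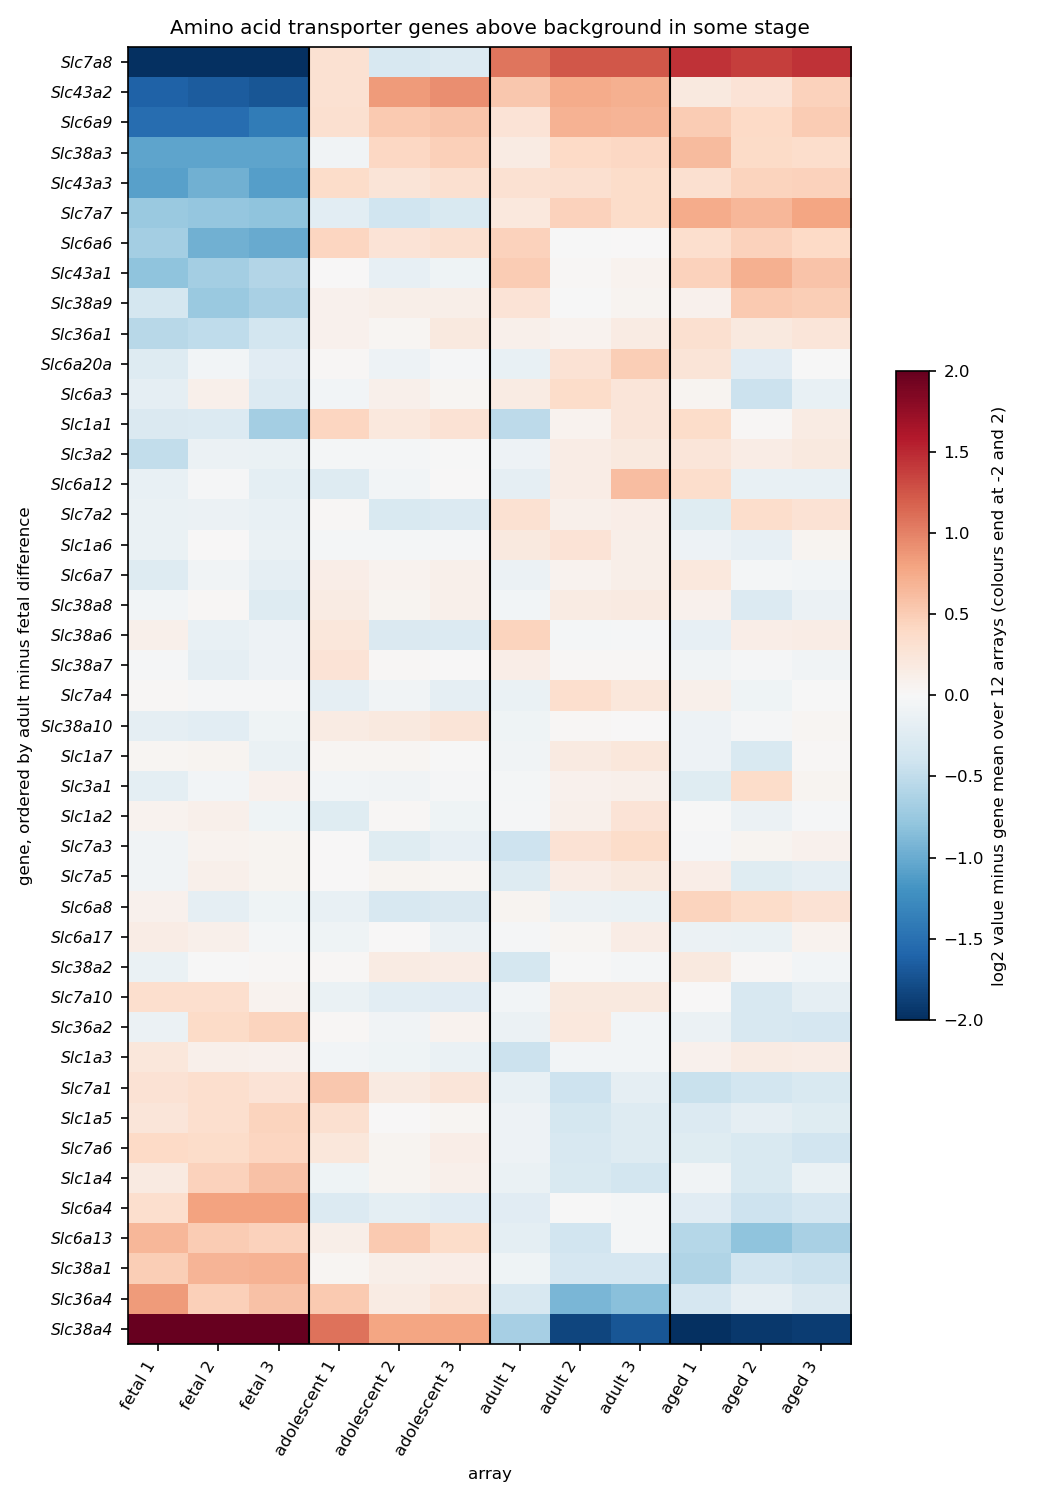
Signal of the 43 transporters above background in some stage (vertical axis) on the 12 arrays (horizontal axis, grouped by stage), as the log2 difference from each gene's mean, with colours ending at -2 and 2. Genes are ordered by adult minus fetal, with Slc7a8 (3.70) and Slc38a4 (-3.88) at the ends. The median range of stage means was 0.50 on the log2 scale. By limma's F-test 24 of the 43 passed (55.8%, against 54.4% of all genes above background in some stage).

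From fetal to adolescent, 13 transporters rose and 5 fell (29%, against 18.8% of all genes, of which 10.1% were higher and 8.68% lower). Of these, 7 differed by 2-fold or more, where 991 of all 19938 genes passed with that size. The median difference was 0.06, against 0.02 over all genes, and groups did not overlap for 25 transporters (41.6% of all genes). Of the transporters above background in some stage 12 of 43 rose and 5 fell (39.5%, against 25.4% of all such genes). Without any 1 array of these stages 12 or 13 rose, and 3 fell without fetal replicate 2, adolescent replicate 2 or adolescent replicate 3.

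In order of size, the 6 rises of 2-fold or more were those of Slc7a8, Slc43a2, Slc6a9, Slc43a3, Slc38a3 and Slc6a6. Slc7a8 read 7.03, 6.68 and 6.94 on the fetal arrays, 9.70, 9.09 and 9.13 on the adolescent arrays, 10.47, 10.64 and 10.64 on the adult arrays and 10.84, 10.79 and 10.84 on the aged arrays. Every array of a later stage lay above all arrays of the stage before. The rise was 2.42 ± 0.15 on the log2 scale (SE; limma adjusted p = 2.15e-07) from fetal to adolescent and 1.28 ± 0.15 (adjusted p = 0.000246) from adolescent to adult. The further 0.24 ± 0.15 from adult to aged did not pass (adjusted p = 0.352).

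All 3 members of the Slc43 family rose from fetal to adolescent. Slc43a2 read 6.24, 6.20 and 6.16 in fetal, 8.17, 8.72 and 8.80 in adolescent, 8.40, 8.61 and 8.58 in adult and 8.06, 8.13 and 8.33 in aged cells. The fetal arrays lay below all others, and the rise was 2.36 ± 0.15 (5.14-fold, adjusted p = 2.07e-07). Slc43a3 read 10.25, 10.38 and 10.23 in fetal, 11.69, 11.58 and 11.65 in adolescent, 11.63, 11.65 and 11.70 in adult and 11.66, 11.77 and 11.79 in aged cells. It rose by 1.36 ± 0.09 to adolescent cells (adjusted p = 2.58e-07). Slc43a1, which carries branched-chain and other large neutral amino acids, read 8.29, 8.41 and 8.50 in fetal, 9.10, 8.92 and 9.00 in adolescent, 9.60, 9.11 and 9.15 in adult and 9.55, 9.80 and 9.66 in aged cells. It rose by 0.61 ± 0.13 from fetal to adolescent (adjusted p = 0.00543), and later steps did not pass. The step from adolescent to adult (0.28) did pass with quantile normalization repeated, with each array centred on its median or with array weights. That from adult to aged (0.38) passed with array weights or without adult replicate 1. Slc43a1 and Slc43a3 lie near each other in the genome with 1 coding gene between them.

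Among the sodium-coupled carriers, Slc6a9, a glycine carrier, read 6.52, 6.53 and 6.64 in fetal, 8.36, 8.57 and 8.60 in adolescent, 8.32, 8.74 and 8.72 in adult and 8.55, 8.44 and 8.54 in aged cells. Its rise of 1.95 ± 0.12 (adjusted p = 2.03e-07) was complete by the adolescent stage, and no later step passed. Slc6a6, the taurine carrier, read 8.52, 8.24 and 8.19 in fetal, 9.63, 9.47 and 9.53 in adolescent, 9.66, 9.20 and 9.21 in adult and 9.54, 9.66 and 9.60 in aged cells. It rose by 1.23 ± 0.13 (adjusted p = 2.45e-05). Slc38a3, a glutamine carrier, read 7.03, 7.03 and 7.04 in fetal, 8.01, 8.50 and 8.56 in adolescent, 8.25, 8.49 and 8.51 in adult and 8.73, 8.47 and 8.43 in aged cells, a rise of 1.32 ± 0.14 (adjusted p = 2.20e-05). In all 3 genes the fetal arrays stood below every later array. Endothelial and myofibre markers, as given above, and pericyte and smooth muscle markers (6 of 10 higher and 1 lower, median 0.86 on the log2 scale) rose at the same step, while 3 of 10 fibroblast markers rose and 4 fell. The part of these markers in the rises was not tested.

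Smaller rises were also found. Slc38a9, the lysosomal arginine sensor of the mTORC1 pathway, read 8.19, 7.79 and 7.89 in fetal, 8.62, 8.65 and 8.65 in adolescent, 8.81, 8.53 and 8.59 in adult and 8.63, 9.05 and 9.04 in aged cells. The rise to adolescent cells was 0.68 ± 0.14 (adjusted p = 0.00334). Its other probe set, dimmer and not fitted on its own, read 6.37, 6.33 and 6.35 in fetal and 6.48, 6.70 and 6.90 in adolescent cells. Slc36a1, a proton-coupled carrier of small neutral amino acids, read 7.10, 7.16 and 7.29 in fetal, 7.74, 7.70 and 7.86 in adolescent, 7.76, 7.73 and 7.83 in adult and 7.99, 7.85 and 7.90 in aged cells, a rise of 0.58 ± 0.09 (adjusted p = 5.55e-04). Slc38a10 rose by 0.36 (adjusted p = 0.00996, and 0.0535 without adolescent replicate 3). Slc1a1, a glutamate carrier, rose by 0.72 (adjusted p = 0.0135) but was at background in fetal and adult cells, and its call was lost without fetal replicate 3 or adolescent replicate 1 (adjusted p up to 0.0735). Slc38a11 rose by 0.85 but stayed at background in every stage.

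**Figure D2:**
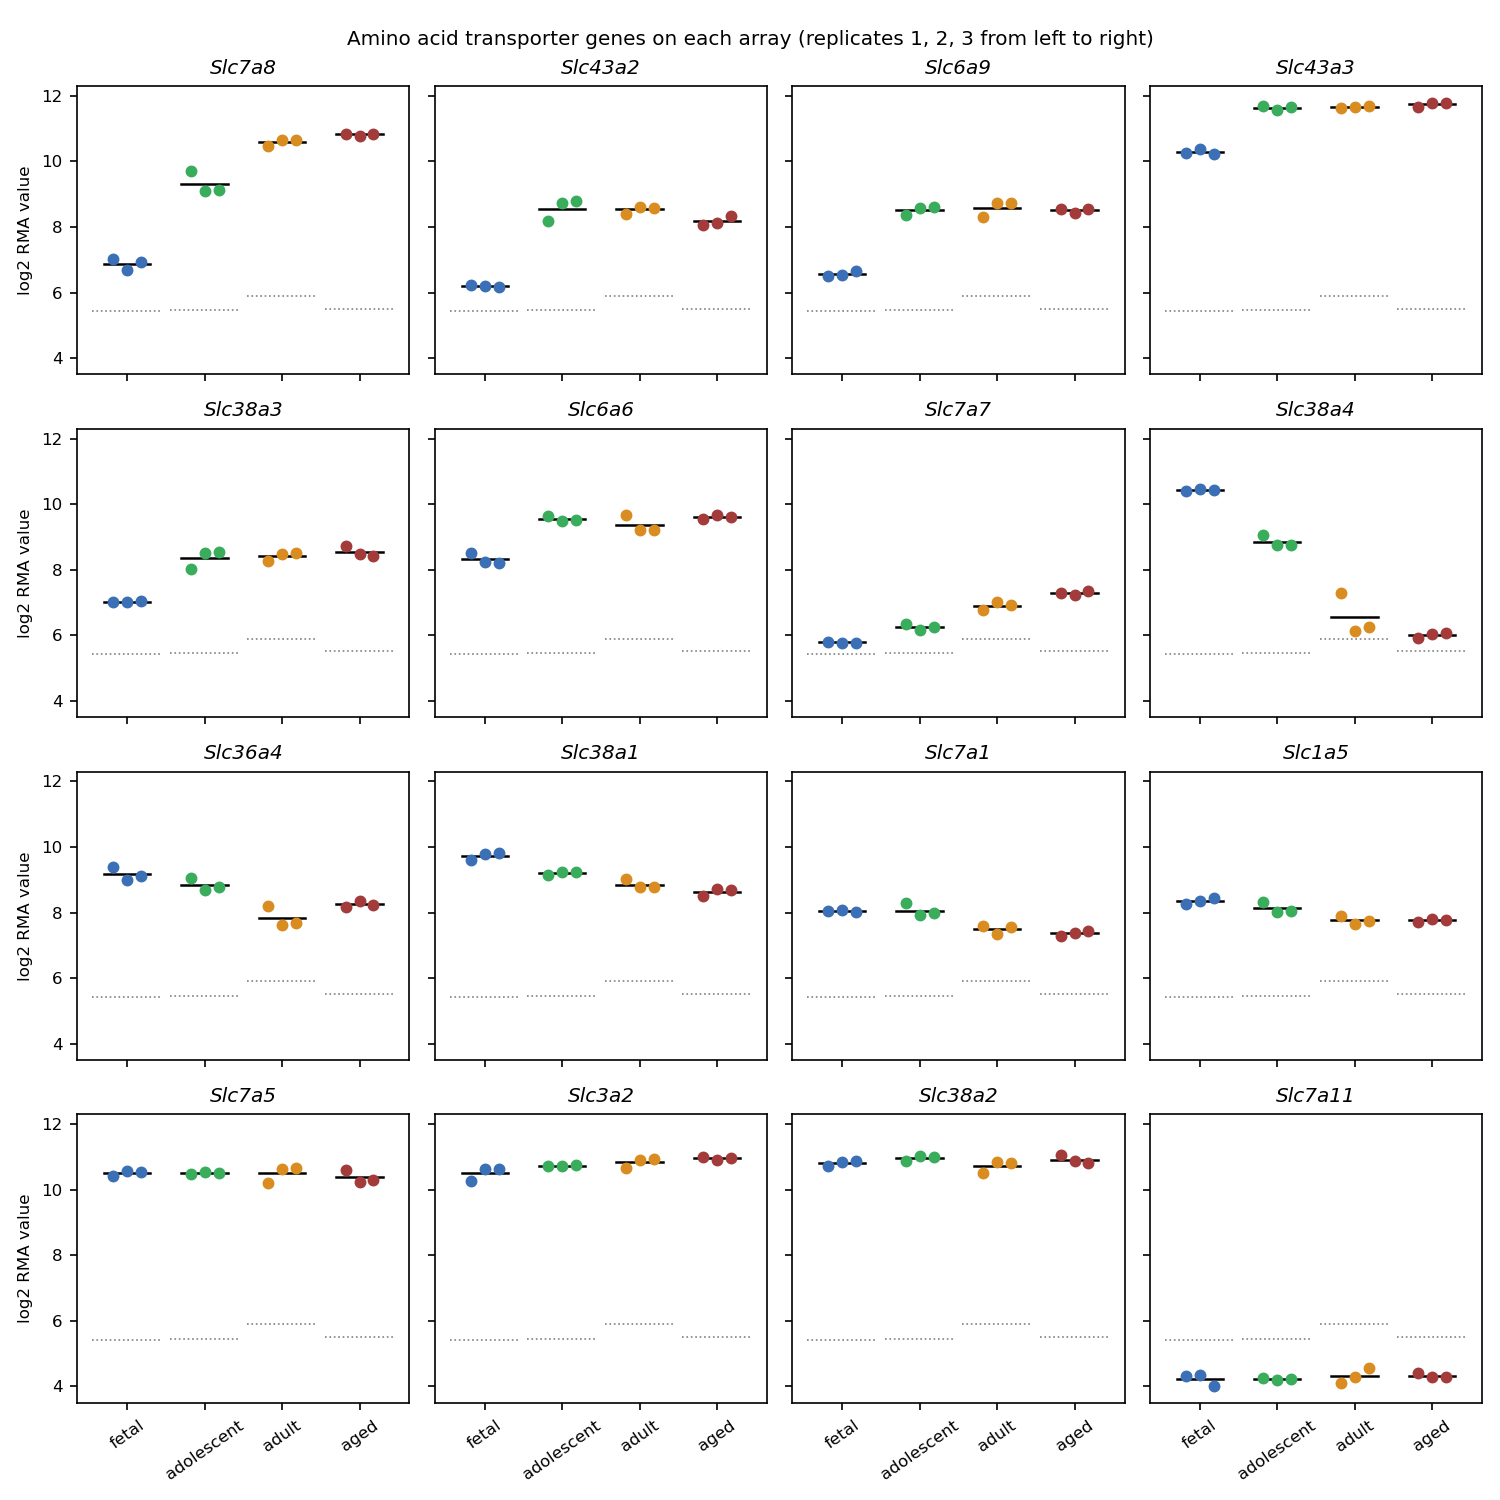
Log2 signal (vertical axis) of 16 transporters on each array (points), by stage (horizontal axis), with the stage mean as a black line and the background of each stage as a dotted line. Slc7a8 climbs from 6.68 to 7.03 in fetal cells to 10.79 to 10.84 in aged cells, and Slc38a4 descends from 10.42 to 10.45 in fetal cells to 5.92 to 6.07 in aged cells.

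The falls were led by Slc38a4. It read 10.42, 10.45 and 10.45 in fetal, 9.05, 8.75 and 8.75 in adolescent, 7.30, 6.12 and 6.25 in adult and 5.92, 6.04 and 6.07 in aged cells. Each stage lay below the one before without overlap. It fell by 1.59 on the log2 scale (3.01-fold, SE 0.23, adjusted p = 3.04e-04) to adolescent cells and then fell by 2.29 (4.90-fold, SE 0.23, adjusted p = 1.10e-04) to adult cells, while -0.55 ± 0.23 from adult to aged did not pass (adjusted p = 0.210). Adult replicate 1 stood above the other adult arrays, and adult replicates 2 and 3 were close to the receptors' 95th percentile of 6.14 on both of them, so that folds against the adult stage are at the edge of what the array could measure. Aged replicates read 5.92, 6.04 and 6.07 against percentiles of 5.86, 5.33 and 5.42. Without adult replicate 1 it fell by 2.66 from adolescent to adult, and aged minus adult was -0.18 (adjusted p = 0.199).

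Slc38a4 lies next to Slc38a2, and Slc38a2 next to Slc38a1, with no coding gene between them, and the neighbours had different courses. Slc38a1, a glutamine and alanine carrier, read 9.61, 9.79 and 9.80 in fetal, 9.15, 9.22 and 9.25 in adolescent, 9.02, 8.77 and 8.77 in adult and 8.50, 8.73 and 8.68 in aged cells. It fell by 0.53 to adolescent cells (SE 0.11, adjusted p = 0.00322) and by 0.88 over the span from fetal to adult (SE 0.11, adjusted p = 3.01e-05). Its other probe set, dimmer and not fitted on its own, read 8.11, 7.94 and 8.28 in fetal and 7.43, 7.63 and 7.65 in adolescent cells. That probe set read 7.16, 6.57 and 6.35 in adult and 6.72, 7.06 and 6.94 in aged cells. Slc38a2, the carrier of the family best known to respond to amino acid shortage, read 10.72, 10.85 and 10.89 in fetal, 10.87, 11.02 and 11.00 in adolescent, 10.50, 10.85 and 10.82 in adult and 11.05, 10.88 and 10.81 in aged cells, and passed in no comparison (adult minus fetal -0.09 ± 0.12, adjusted p = 0.506). The differences between the neighbours themselves were not tested.

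Slc1a4, a carrier of alanine, serine and cysteine, read 7.59, 7.86 and 7.99 in fetal, 7.31, 7.45 and 7.51 in adolescent, 7.26, 7.09 and 7.03 in adult and 7.33, 7.09 and 7.27 in aged cells. It fell by 0.39 from fetal to adolescent (SE 0.12, adjusted p = 0.0419), and the call was lost without any 1 of the arrays of those stages other than fetal replicate 1 (adjusted p up to 0.194). From fetal to adult it fell by 0.68 (SE 0.12, adjusted p = 6.71e-04), and that call was kept under every alternative and without any 1 array. Slc6a4, the serotonin carrier, read 5.98, 6.46 and 6.46 in fetal, 5.38, 5.46 and 5.42 in adolescent, 5.42, 5.65 and 5.61 in adult and 5.42, 5.23 and 5.32 in aged cells. It fell by 0.88 to adolescent cells (SE 0.13, adjusted p = 3.07e-04). Its later stages were at background, so its size is a lower bound. Mast cells are known to carry serotonin. Of the 8 mast cell markers 6 also fell from fetal to adolescent, where 8.68% of all genes fell, and 3 of the 8 were at background in every stage. Their part in the fall of Slc6a4 was not tested. Slc7a10, a carrier of small neutral amino acids, read 6.30, 6.30 and 6.04 in fetal, 5.84, 5.76 and 5.75 in adolescent, 5.92, 6.17 and 6.17 in adult and 5.98, 5.65 and 5.79 in aged cells. It fell by 0.43 to adolescent cells (SE 0.12, adjusted p = 0.0201). This call was lost without fetal replicate 1 or 2 or adolescent replicate 2 or 3 (adjusted p up to 0.0865).

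From adolescent to adult, 3 transporters rose and 7 fell (16.1%, against 19.8% of all genes, of which 4.56% were higher and 15.2% lower). The median difference was 0.12, against 0.03 over all genes, and groups did not overlap for 23 transporters (36% of all genes). The balance of rises and falls depended on the scaling: 7 rose and 6 fell with quantile normalization repeated, and 10 rose and 4 fell with each array centred on its median, which moved the median over all genes by 0.11. Shares of all genes that rose or fell under either of these scalings are not given here, so no shift particular to the transporters is shown. The balance also depended on adult replicate 1. Without that array 19 transporters rose and 10 fell, 54% of all genes passed, and 11 of the 19 that rose were at background in every stage. The falls numbered 4 without adolescent replicate 1 or 3 or adult replicate 3, and 3 without adult replicate 2. Kept under each alternative setting run and without any 1 array were the rises of Slc7a8 and Slc7a7 and the falls of Slc38a4, Slc36a4 and Slc7a1.

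Slc7a7, the light chain of an exchanger of cationic for neutral amino acids, read 5.81, 5.78 and 5.76 in fetal, 6.34, 6.15 and 6.26 in adolescent, 6.77, 7.01 and 6.92 in adult and 7.30, 7.23 and 7.35 in aged cells, with no overlap between one stage and the next. It rose by 0.47 ± 0.09 (adjusted p = 0.00334), 0.65 ± 0.09 (adjusted p = 7.49e-04) and 0.39 ± 0.09 (adjusted p = 0.0403) at the successive steps, and by 1.12 ± 0.09 from fetal to adult. The last of these calls was lost under both other scalings. Its relative Slc7a6, with the same exchange, went the other way. Slc7a6 read 8.33, 8.31 and 8.36 in fetal, 8.16, 7.99 and 8.07 in adolescent, 7.83, 7.62 and 7.68 in adult and 7.70, 7.64 and 7.56 in aged cells. It fell by 0.36 from adolescent to adult (SE 0.09, adjusted p = 0.0178) and by 0.62 from fetal to adult (SE 0.09, adjusted p = 1.70e-04). The first of these did not pass under either other scaling or without adolescent replicate 1 or 3 or adult replicate 2 or 3 (adjusted p up to 0.0868), and the second passed under both other scalings and without any 1 fetal or adult array.

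Slc36a4, a carrier of proline and tryptophan, read 9.38, 9.00 and 9.11 in fetal, 9.05, 8.68 and 8.78 in adolescent, 8.21, 7.61 and 7.69 in adult and 8.18, 8.35 and 8.23 in aged cells. It fell by 1.00 from adolescent to adult (SE 0.16, adjusted p = 0.00130) and by 1.33 from fetal to adult (2.51-fold, SE 0.16, adjusted p = 3.03e-05). Slc7a1, the main carrier of arginine and lysine in most cells, read 8.03, 8.08 and 8.01 in fetal, 8.28, 7.92 and 7.98 in adolescent, 7.59, 7.33 and 7.55 in adult and 7.30, 7.37 and 7.43 in aged cells. It fell by 0.57 from adolescent to adult (SE 0.11, adjusted p = 0.00423), and the adult and aged arrays lay below all fetal and adolescent arrays. Its relative Slc7a2 read 9.12 to 9.45 on the fetal and adolescent arrays and 9.19 to 9.78 on the adult and aged arrays and passed in no comparison.

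Slc1a5, a glutamine exchanger often high in dividing cells, read 8.25, 8.34 and 8.45 in fetal, 8.33, 8.02 and 8.05 in adolescent, 7.91, 7.66 and 7.75 in adult and 7.72, 7.82 and 7.76 in aged cells. The adult and aged arrays lay below all earlier ones. It fell by 0.36 from adolescent to adult (SE 0.11, adjusted p = 0.0374) and by 0.58 from fetal to adult (SE 0.11, adjusted p = 0.00115). Slc38a1 fell by 0.35 at the same step (adjusted p = 0.0365). The labels state no pairing by replicate number. With the number as a block in limma, the fall from adolescent to adult no longer passed for Slc1a5 (adjusted p = 0.0574) or Slc38a1 (adjusted p = 0.0599). Both calls were also lost under either other scaling and without any 1 array of the pair of stages other than adult replicate 1 (adjusted p up to 0.157 for Slc1a5 and 0.145 for Slc38a1). Slc6a13, a carrier of GABA and taurine, read 6.73, 6.57 and 6.52 in fetal, 6.19, 6.58 and 6.43 in adolescent, 5.86, 5.68 and 6.03 in adult and 5.50, 5.26 and 5.42 in aged cells. It fell by 0.54 from adolescent to adult (SE 0.13, adjusted p = 0.0112), into background, so the size is a lower bound. This call was lost without adolescent replicate 2 or adult replicate 2 (adjusted p up to 0.0607). From fetal to adult Slc6a13 fell by 0.75, also into background (SE 0.13, adjusted p = 4.75e-04), a call kept under every alternative and without any 1 array. The remaining rise from adolescent to adult, of Slc7a13, was of 0.44 within background.

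Genes of dividing cells fell over the step from adolescent to adult, where 15.2% of all genes fell. All 19 genes of G2 and M phase fell from adolescent to adult, with a median difference of -2.60. Their mean lay between 8.92 and 9.04 on adolescent arrays. Myofibre markers had a median difference of -0.93 and endothelial markers of -0.82, with 4 of 10 and 7 of 14 falling. Of 10 fibroblast markers 4 fell and none rose (median -0.56, and 0 higher at an unadjusted p under 0.05 by limma), and of 10 pericyte and smooth muscle markers 3 fell and 1 rose (median -0.32). What part these had in the falls of Slc38a4, Slc7a1, Slc36a4 and Slc1a5 was not tested.

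**Figure D3:**
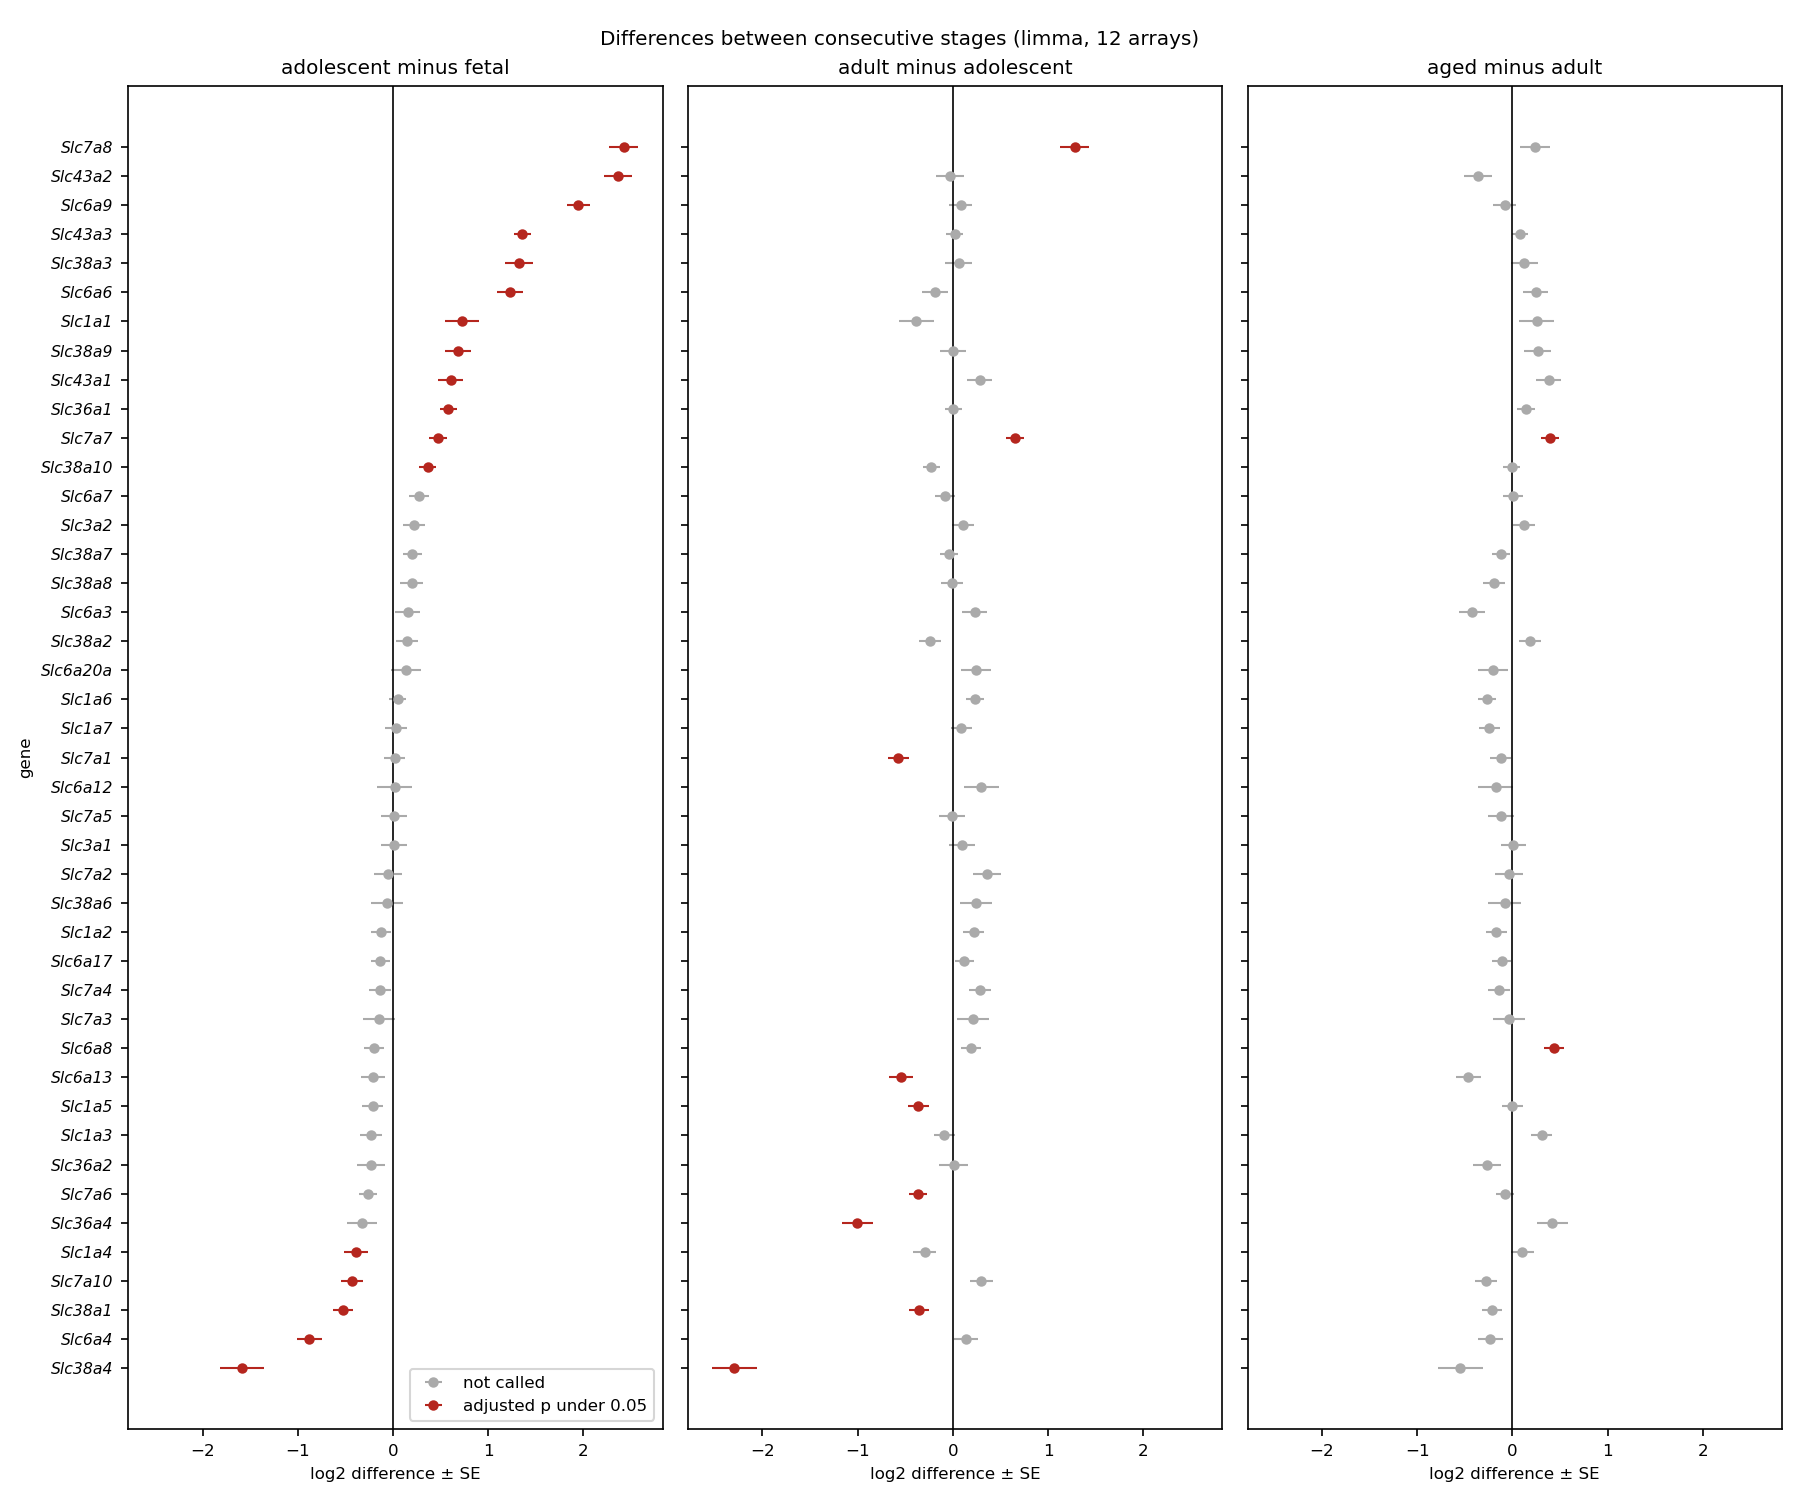
Log2 difference (horizontal axis, points with bars of 1 SE) of the 43 transporters above background in some stage (vertical axis) in each of the 3 consecutive comparisons, with red for limma's adjusted p under 0.05. Most red points stand in the first comparison, where 12 rose and 5 fell, against 2 and 7 in the second and 2 and 0 in the third.

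From adult to aged, 2 transporters rose and none fell by limma (3.23%, against 3.5% of all genes, of which 3.28% were higher and 0.216% lower). At an unadjusted p under 0.05 there were 7 higher and 9 lower (11.3% and 14.5%, against 12.2% and 8.91% of all genes). The median difference was -0.12, against -0.01 over all genes, and groups did not overlap for 15 transporters (16% of all genes). Slc6a8, the creatine carrier, read 8.69, 8.42 and 8.52 in fetal, 8.45, 8.28 and 8.31 in adolescent, 8.66, 8.49 and 8.46 in adult and 9.05, 8.97 and 8.90 in aged cells. The aged arrays lay above all others, and it rose by 0.44 ± 0.10 (adjusted p = 0.0385). With Slc7a7 it made up the calls of this step, and neither call was kept under every setting: both were lost with quantile normalization repeated or arrays centred, and without adult replicate 2 or 3 or aged replicate 2 or 3 (adjusted p up to 0.156 for Slc6a8 and 0.186 for Slc7a7). The endothelial markers were also higher in aged cells, by a median of 1.10 on the log2 scale, and their part was not tested.

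When adult replicate 1 was left out, 6 transporters rose and 19 fell from adult to aged, 39.3% of all genes passed, and 10 of the 19 that fell were at background in every stage. Slc43a1 was then higher by 0.53 in aged cells (adjusted p = 0.00425), against 0.38 that did not pass with all arrays, and Slc36a4 by 0.60 (adjusted p = 0.00652), against 0.42. Without aged replicate 1, 3 transporters fell. Without adult replicate 2 or 3, or aged replicate 2 or 3, none rose.

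Over the whole span from fetal to adult, 19 transporters rose and 10 fell (46.8%, against 42.5% of all genes, of which 19.1% were higher and 23.4% lower). Of these, 9 differed by 2-fold or more, where 2067 of all 19938 genes passed with that size. The comparison shares its arrays with the steps before and is not independent of them. The median difference was 0.21, against 0.09 over all genes, and groups did not overlap for 33 transporters (47.9% of all genes). Of the 19 rises 6 were of genes at background in every stage (Slc7a13, Slc7a15, Slc6a2, Slc6a14, Slc6a19 and Slc6a20b, by 0.27 to 0.52), where the receptor signal of 2 adult arrays was also high. Among those above background in some stage, 13 rose and 10 fell (53.5%, against 51.4% of 14269 such genes). Of all such genes 2766 were higher and 4570 lower. These 13 rises include that of Slc1a6 (0.28), which was at background in adult cells. Without adult replicate 1, 33 rose, 14 of them at background, and 65% of all genes passed (35.1% higher). Without adult replicate 2, 11 rose, and without fetal replicate 1 or 3 or adult replicate 3, 12 rose.

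No change in the main exchanger of large neutral amino acids passed for its light chain. Slc7a5, that light chain, read 10.41, 10.57 and 10.53 in fetal, 10.49, 10.54 and 10.52 in adolescent, 10.21, 10.63 and 10.67 in adult and 10.61, 10.24 and 10.30 in aged cells. The stages overlapped, and adult minus fetal was 0.00 ± 0.13 (adjusted p = 0.992). Slc3a2, the heavy chain that it shares with Slc7a6, Slc7a7 and Slc7a8, read 10.27, 10.65 and 10.62 in fetal, 10.73, 10.71 and 10.75 in adolescent, 10.66, 10.90 and 10.95 in adult and 11.01, 10.91 and 10.96 in aged cells. It rose by 0.33 ± 0.12 from fetal to adult (adjusted p = 0.0402), a call that was lost without fetal replicate 1 or adult replicate 2 or 3 (adjusted p up to 0.155). Of these light chains, Slc7a8 and Slc7a7 rose, Slc7a6 fell and Slc7a5 did not pass over that span. Slc7a11, the cystine and glutamate exchanger, stayed at background, with 4.32, 4.35 and 4.01 in fetal, 4.25, 4.20 and 4.23 in adolescent, 4.12, 4.30 and 4.57 in adult and 4.40, 4.30 and 4.29 in aged cells.

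Genes that act on the same amino acids were followed beside the transporters. Of 17 cytosolic aminoacyl-tRNA synthetases, which load amino acids onto tRNA, none passed from fetal to adolescent by limma (1 higher and 1 lower at an unadjusted p under 0.05). From adolescent to adult 8 fell and none rose, where 15.2% of all genes fell and 4.56% rose. The median difference at that step was -0.45 against 0.03 over all genes. Rars fell by 0.70, Kars fell by 0.58, Yars fell by 0.53 and Nars fell by 0.50. The means of this list were 8.93 to 8.96 on adolescent arrays and 8.73, 8.44 and 8.45 on the adult arrays, with adult replicate 1 the highest. From adult to aged none passed (0 higher and 2 lower at an unadjusted p under 0.05). Without adult replicate 1, 14 fell from adolescent to adult, where 28.6% of all genes fell.

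Of 38 genes of amino acid sensing by mTORC1, 9 fell and none rose from adolescent to adult, where 15.2% of all genes fell and 4.56% rose. All 38 were above background in some stage, and 23.7% of them passed, against 26.2% of all such genes. Rragd, a Rag GTPase that binds mTORC1 at the lysosome, fell by 1.03 from fetal to adolescent and by 1.00 to adult. Mlst8, a subunit of mTORC1, fell by 0.74 at the second step, and Deptor, an inhibitor of mTOR, rose by 0.63 at the first. From adult to aged Fnip1, a partner of the GTPase regulator folliculin, was the 1 gene to rise, by 0.62, where 3.28% of all genes rose. Without adult replicate 1, 22 of the 38 fell from adolescent to adult, where 28.6% of all genes fell, and 13 rose from adult to aged, where 20.3% of all genes rose. Of 29 genes of the ATF4 stress response, 6 rose and 8 fell from adolescent to adult, where 4.56% and 15.2% of all genes did. Psat1, an enzyme of serine synthesis, fell by 1.77, and Gpt2, an alanine aminotransferase, fell by 1.76. The transcription factors Atf3 and Cebpb rose by 1.69 and 1.07. Without adult replicate 1, 7 rose and 12 fell, where 25.4% and 28.6% of all genes did. Asns, which makes asparagine and is a known target of ATF4, fell by 1.08 from fetal to adolescent.

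Among 33 amino acid enzymes, 9 rose and 2 fell from fetal to adolescent, where 10.1% and 8.68% of all genes did. Glul, which makes glutamine, rose by 1.71, and Cdo1, which oxidises cysteine, fell by 1.82. From adolescent to adult 5 rose and 7 fell, where 4.56% and 15.2% of all genes did. Bcat1, the cytosolic branched-chain aminotransferase, fell by 1.76, and Got1, an aspartate aminotransferase, fell by 0.94. From adult to aged 4 rose, where 3.28% of all genes did, among them Aass of lysine breakdown (by 1.26). Without adult replicate 1, where 20.3% of all genes rose, 14 of these enzymes rose. Of 21 other amino acid carriers 4 rose and 1 fell from fetal to adolescent, where 10.1% and 8.68% of all genes did. Slc15a2, a peptide carrier, rose by 1.25 and Slc16a10, a carrier of aromatic amino acids, by 1.05. Slc25a13, a mitochondrial aspartate and glutamate carrier, fell by 1.52. These lists were not tested as sets.

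**Figure D4:**
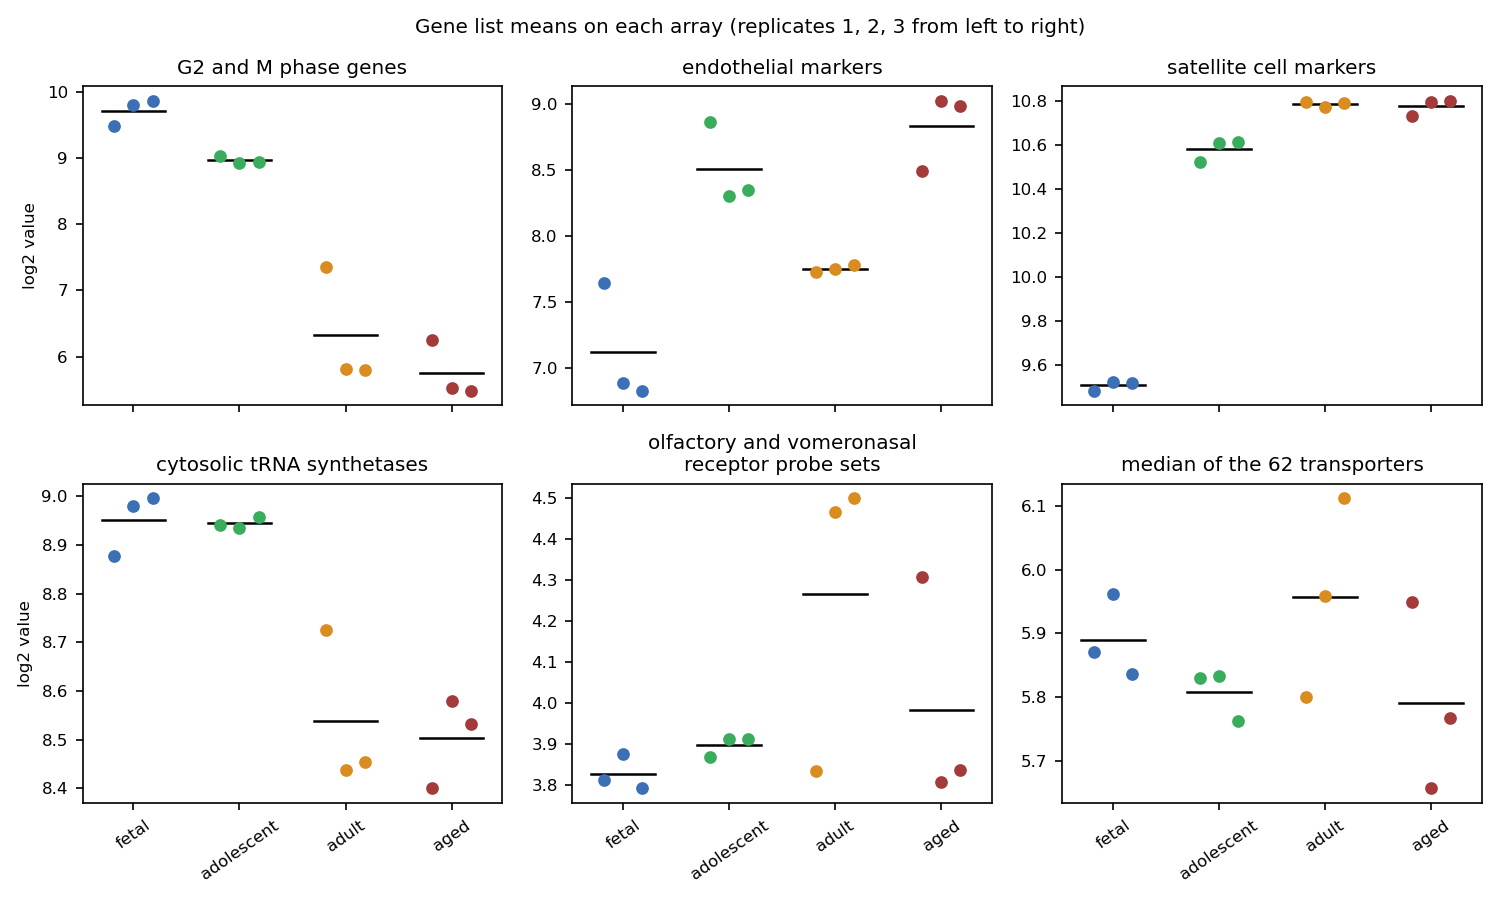
Log2 signal (vertical axes, each with its own range) on each of the 12 arrays (points) by stage (horizontal axis), as the mean of 4 gene lists and of the receptor probe sets and the median of the 62 transporters, with the stage mean as a black line. Adult replicate 1 stands above the other adult arrays for tRNA synthetases (8.73 against 8.44 and 8.45) and for G2 and M phase genes (7.36 against 5.81 and 5.80).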

How the data were processed

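RNA of sorted satellite cells was amplified from 100 ng and read on 12 single-colour Affymetrix arrays, 3 per stage, per the labels' protocols. The deposited values are log2 signals, made with Affymetrix Expression Console (1.2.1.20) and its RMA method per the submitters' processing notes, and were used as deposited. The genome build is not given in the sources used here. Scanner files were not used, and 0 value columns were left out.

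Of 35556 probe sets, 21789 had 1 gene symbol, 1621 several and 12146 none here. The brightest probe set stood for each of 19938 genes (999 had several, among them 2 transporters, Slc38a1 and Slc38a9). Stages were fitted together with limma 3.58.1 in R 4.3.3 (8 residual degrees of freedom), and a gene passed, rose or fell where p, adjusted by Benjamini and Hochberg over all 19938 genes, was under 0.05. An exact permutation test of 3 against 3 arrays cannot go below 0.1. The method was checked on simulated data. Across the 4 comparisons it recovered 25 to 38 of 67 genes changed 1.5-fold, 53 to 56 of 67 changed 2-fold and 64 to 65 of 66 changed 4-fold. Changes of about 1.5-fold were thus often missed in the simulation. Only these genes were changed there among 19938, with noise drawn independently for each gene and array. In the real data more genes passed and deviations were correlated between some arrays, so these rates need not hold there.

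The transporters, the 15 gene lists (244 of 264 names matched) and the alternatives were chosen with earlier results of these data known. Values on every array are given for 14 fixed transporters and for those that passed with the 4 largest rises and falls of a comparison provided the higher stage averaged 6 or more; Slc7a2 and Slc7a6 were added to these after their values were seen, and others are named to complete a count. Up to 4 genes of a pathway list are named per comparison by p. Deviations from stage means correlated between equally numbered adolescent and adult arrays (0.362, 0.317 and 0.239). Adolescent replicate 2 with adult replicate 3 (0.293) and adolescent replicate 3 with adult replicate 2 (0.240) gave similar values. Replicate 1 of either stage with replicate 2 or 3 of the other gave -0.336 to -0.264. These values set replicate 1 apart from replicates 2 and 3 and do not show pairing by number. The labels state no pairing, so the fit has no block. Promoter windows and gene neighbours are from RefSeq on GRCm38.p6.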

Additional observations from a re-analysis of the deposited data

How the results depend on the processing

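All alternatives were chosen with earlier results known. No difference of a transporter that passed changed sign under any of them. With quantile normalization repeated, 7 transporters rose from adolescent to adult, and 1 rose and 1 fell from adult to aged. With arrays centred on their median, 10 rose and 4 fell from adolescent to adult and 0 rose from adult to aged. Shares of all genes that rose or fell under either scaling are not given here. With only genes of a stage mean of at least 6, 1 fell from adult to aged and 12 rose from fetal to adult. Array weights, which assume that arrays differ in quality, moved most counts. All genes that passed then numbered 8482 from fetal to adolescent (12 transporters fell), 14830 from adolescent to adult (33 rose, 12 fell), 14000 from adult to aged (8 rose, 30 fell) and 15574 from fetal to adult (41 rose), and 18262 genes and 57 transporters differed among stages. Fitted on the pair of stages alone, 2145 genes passed and 3 transporters fell from adolescent to adult, 176 genes passed and 0 transporters rose from adult to aged, and 11 rose from fetal to adult. With replicate number as a block, the replicate block left 1 rise from adult to aged (Slc7a7 was lost, adjusted p = 0.0847), and took Slc1a4 below the threshold from fetal to adolescent (adjusted p = 0.0689). From fetal to adult it ended the calls of Slc1a3, Slc1a6, Slc7a13, Slc6a3 and Slc6a19 (adjusted p 0.0532 to 0.0749). Beside Slc1a5 and Slc38a1 from adolescent to adult, it changed no other call of a transporter named here. Without 1 array, genes that passed numbered 2690 to 3330, 1876 to 10757, 214 to 7844 and 5923 to 12968 (fetal to adolescent, adolescent to adult, adult to aged, fetal to adult). Transporters that rose numbered 12 to 13, 2 to 19, 0 to 6 and 11 to 33, and those that fell 3 to 5, 3 to 10, 0 to 19 and 9 to 10. Among stages 6665 to 14192 genes and 23 to 42 transporters differed. Among the transporter differences recomputed under the alternatives (those that passed and those printed here), the ones that changed sign were from fetal to adult and did not pass. Slc7a11 was -0.16 with quantile normalization, and -0.018 to 0.21 without 1 array (-0.0075 without fetal replicate 3). Slc6a8 was 0.26 with quantile normalization and 0.038 with arrays centred, and -0.067 to 0.068 without 1 array. Slc7a5 was -0.081 to 0.15 and Slc38a2 -0.16 to 0.017 without 1 array. The cause was not tested. Other background corrections and a slide block could not be run on the deposited values, and signals near the receptor background limit what a fold can show.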
